A study of Mus musculus with 18 samples.

Results

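Expression of 10 non-opioid neuropeptide and granin-like precursor genes was followed in the dentate gyrus, the hippocampal field built mainly of granule neurons. The genes were Npy, Sst, Cck, Vip, Tac1, Crh, Nts, Adcyap1, Vgf and Scg2, taken by symbol, and all 10 were found among the 24015 rows of each deposited table. The choice of genes used no measured value of these tables as a rule, but was made with earlier results of the data known. RNA was sequenced from microdissected tissue of C57BL/6 mice aged 8 weeks, in 18 libraries that formed 6 groups of 3, each from its own animal per the labels' protocols. The group cFos_OE overexpressed c-Fos, which pairs with Jun proteins to form AP-1, and was set against EYFP_OE, which overexpressed a yellow fluorescent protein. Mice with a hairpin named for c-Fos, shRNA-cFos, were taken at E1 or at E0, and so were mice with a control hairpin, shRNA-Ctrl. The authors' tables call the E0 side sham, and the series concerns neuronal activation. How the constructs were delivered, which cells expressed them and how E1 was reached are not given here.

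The values used were 3 tables of the authors' own comparisons, one row per gene, with no value per library. Thus the spread between animals enters only through the authors' standard errors, and depth per library is unknown. Each log2 fold change is given ± its standard error from 3 libraries against 3, and a gene was called at the authors' adjusted p under 0.05. Fos, the targeted gene, was higher in all 3 tables, at 3.34 ± 0.20 with cFos_OE, 2.33 ± 0.15 at E1 with shRNA-cFos and 3.36 ± 0.14 at E1 with shRNA-Ctrl in the authors' deposited tables. These values are shrunken toward 0, and most so with cFos_OE: without the shrinkage Fos stood at 6.02 with cFos_OE, 2.55 with shRNA-cFos and 3.58 with shRNA-Ctrl, computed from the authors' deposited tables. Its estimated level was 54056 normalized counts in cFos_OE and 835 in EYFP_OE, an imprecise estimate, since the standard error of Fos is close to the highest in that table, where removal of the shrinkage is least certain. Markers of granule neurons were detected, with 12 of 12 tested in each table and a mean normalized count of Prox1, a granule neuron transcription factor, of 1762 to 2741 in the authors' deposited tables. Markers of the GABAergic interneurons (22 of 22), of mossy cells (8 of 8) and of CA1 and CA3 pyramidal neurons (10 of 10) were also tested in each deposited table, so detection alone does not tell the dentate gyrus from neighbouring fields.

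Neuropeptides are cut from longer precursors in the secretory pathway, stored in dense-core vesicles and released during sustained firing, after which they act on G-protein-coupled receptors. In the dentate gyrus most of these precursors mark local inhibitory interneurons, such as the Sst and Npy cells of the hilus and the Vip and Cck basket cells. Cck is also made by glutamatergic neurons, and Vgf and Scg2 are made widely in neurons, where they help to form dense-core vesicles and are themselves cut into peptides. Several of these genes are textbook targets of CREB, an activity-dependent transcription factor that binds the cyclic AMP response element TGACGTCA or its core TGACG.

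The RefSeq promoter table of build GRCm38.p6 matched 8 of the 10 genes, Npy, Sst, Cck, Vip, Tac1, Nts, Adcyap1 and Scg2, by symbol. The 250 bases before each annotated start were searched on both strands for TGACGTCA, for TGACG and for the AP-1 motif TGANTCA, where TGACGTCA holds TGACG on both strands. TGACGTCA occurred in 2 of the 8 genes, Sst, where it began 48 bases before the start, and Scg2, where it began 68 bases before it. The 8 genes have 9 windows, as Adcyap1 has 2, so TGACGTCA was in 2 of 9 windows, beside 1.55% of 32851 windows of all genes. TGACG occurred in 7 of the 8 genes, all but Npy, and in 8 of their 9 windows, beside 17.8% of all windows. The 2 windows of Adcyap1 overlap and hold the same TGACG, so 1 site counts for 2 of the 8 windows. TGANTCA occurred in 1 of the 9 windows, that of Nts, beside 6.75% of all windows. A match describes letters in a window, not a bound site. The sequences below run from 110 to 31 bases before the start, and capitals mark TGACGTCA or TGACG on either strand. They show the members with the full element, the 4 whose core lies in this stretch without it, and Npy, which has neither in the window. The core of Nts began 166 bases before the start and lies outside the stretch, and for Adcyap1 the first of its 2 windows is shown.
Scg2, chr1:79440057-79440136, minus strand: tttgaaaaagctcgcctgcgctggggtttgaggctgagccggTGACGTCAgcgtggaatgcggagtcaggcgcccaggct
Sst, chr16:23890875-23890954, minus strand: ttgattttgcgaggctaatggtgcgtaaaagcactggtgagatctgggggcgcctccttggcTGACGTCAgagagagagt
Vip, chr10:5639108-5639187, plus strand: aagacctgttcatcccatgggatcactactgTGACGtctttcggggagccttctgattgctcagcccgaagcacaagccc
Tac1, chr6:7554951-7555030, plus strand: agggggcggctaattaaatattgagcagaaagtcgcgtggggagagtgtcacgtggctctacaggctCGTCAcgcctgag
Cck, chr9:121495725-121495804, minus strand: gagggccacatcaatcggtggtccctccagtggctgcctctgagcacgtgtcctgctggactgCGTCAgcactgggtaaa
Adcyap1, chr17:93198907-93198986, plus strand: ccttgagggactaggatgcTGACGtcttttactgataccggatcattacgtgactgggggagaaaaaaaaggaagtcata
Npy, chr6:49822600-49822679, plus strand: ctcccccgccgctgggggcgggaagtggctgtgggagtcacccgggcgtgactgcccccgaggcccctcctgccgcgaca

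At E1 no precursor was called lower in either hairpin arm, and Vgf, Scg2, Npy and Sst were called higher in both. With shRNA-cFos, 5 of the 9 genes with an adjusted p rose (Vgf, Scg2, Npy, Sst and Cck) in the authors' deposited table, where 16.3% of 14388 tested genes were called higher, 11.7% lower and 28.1% either way. With shRNA-Ctrl, 7 of 9 rose (Vgf, Scg2, Npy, Sst, Vip, Tac1 and Crh) in the authors' deposited table, where 16.8% of 15675 tested genes were called higher, 16.2% lower and 33.0% either way. The median log2 fold change of the 9 was 0.37 with shRNA-cFos and 0.58 with shRNA-Ctrl, beside medians over all tested genes of -0.0031 and 0.0071, computed from the authors' deposited tables. With c-Fos overexpression the genes divided, as 3 rose (Npy, Scg2 and Vgf), 1 fell (Cck) and 6 were not called. Of 15827 tested genes in that authors' deposited table, 7.10% were called higher, 5.86% lower and 13.0% either way, and the median over the 10 genes was 0.084. In whole tissue, more cells of a type and more RNA per cell cannot be told apart.

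**Figure D1:**
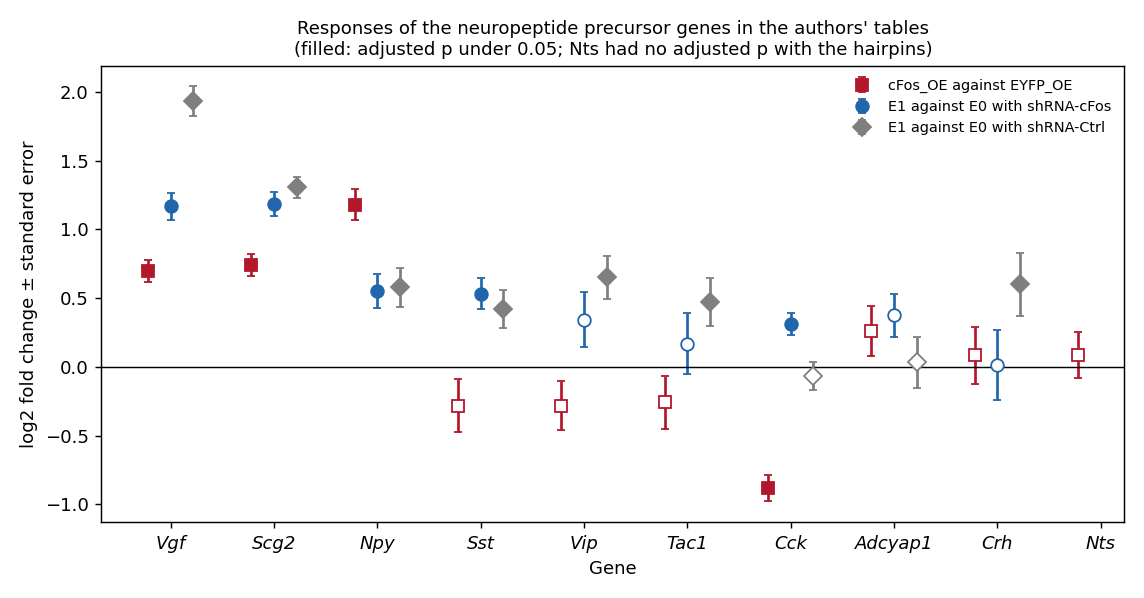
Log2 fold change (y axis, ± the authors' standard error, 3 libraries against 3) of each gene (x axis) with cFos_OE against EYFP_OE (squares), and at E1 against E0 with shRNA-cFos (circles) and with shRNA-Ctrl (diamonds). Nts had no adjusted p with the hairpins and is shown for cFos_OE alone. Filled symbols passed an adjusted p of 0.05; Vgf, Scg2 and Npy are filled in all 3 comparisons and Cck is the single filled symbol below 0.

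The granin-like precursors gave the highest values of the 10 at E1. Vgf, whose peptides act on neuronal excitability and energy balance, rose at E1 by 1.17 ± 0.10 with shRNA-cFos (2.24-fold, adjusted p = 4.1e-31) in the authors' deposited table. With shRNA-Ctrl it rose by 1.93 ± 0.11 (3.81-fold, adjusted p = 1.1e-69) in the authors' deposited table. Estimated group levels of Vgf were 5974 normalized counts at E1 and 2585 at E0 with shRNA-cFos, against 10273 at E1 and 2567 at E0 with shRNA-Ctrl, computed from the authors' deposited tables. Levels of this kind follow from the mean count and the fold change with its shrinkage removed, carry no error, imply a fold slightly above the shrunken one given beside them, and can be set side by side only within a table, because the tables were normalized separately. Scg2, the precursor of secretoneurin, rose at E1 by 1.18 ± 0.09 with shRNA-cFos (2.27-fold, adjusted p = 2.1e-40) and by 1.31 ± 0.08 with shRNA-Ctrl (2.47-fold, adjusted p = 3.6e-63) in the authors' deposited tables. Its estimated levels, from the same tables of the authors' deposited data, were 7176 at E1 and 3092 at E0 with shRNA-cFos, and 11993 at E1 and 4774 at E0 with shRNA-Ctrl. Of all tested genes, 99.1% had a lower log2 fold change than Scg2 with shRNA-cFos and 99.0% with shRNA-Ctrl. For Vgf these shares were 99.1% and 99.6%.

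Both granin-like genes also rose with c-Fos overexpression. Vgf was 0.70 ± 0.08 (1.62-fold, adjusted p = 6.1e-16) and Scg2 was 0.74 ± 0.08 (1.67-fold, adjusted p = 3.3e-18) in the authors' deposited table. Estimated levels computed from the authors' deposited table were 4525 in cFos_OE and 2731 in EYFP_OE for Vgf. For Scg2 they were 6703 in cFos_OE and 3919 in EYFP_OE. Together with Npy, these genes were 3 of 116 called higher in all 3 tables, a pattern held by 0.809% of the 14341 genes tested in all of them.

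Npy, a peptide of hilar interneurons that restrains glutamate release, rose in every comparison, and most with c-Fos overexpression. It was higher in cFos_OE by 1.18 ± 0.11 (2.27-fold, adjusted p = 4.7e-23) in the authors' deposited table, with estimated levels of 1421 in cFos_OE and 582.5 in EYFP_OE. At E1 it rose by 0.55 ± 0.13 with shRNA-cFos (1.46-fold, adjusted p = 0.00015) and by 0.58 ± 0.14 with shRNA-Ctrl (1.49-fold, adjusted p = 0.00047) in the authors' deposited tables. Its estimated levels there were 379.6 at E1 and 253.2 at E0 with shRNA-cFos, and 697.4 at E1 and 454.7 at E0 with shRNA-Ctrl, computed from the authors' deposited tables.

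Sst, which encodes somatostatin of dendrite-targeting interneurons, rose at E1 in both arms. The log2 fold change was 0.53 ± 0.11 with shRNA-cFos (1.44-fold, adjusted p = 3.0e-05) and 0.42 ± 0.14 with shRNA-Ctrl (1.34-fold, adjusted p = 0.011) in the authors' deposited tables. Estimated levels were 1576 at E1 and 1072 at E0 with shRNA-cFos, and 2249 at E1 and 1649 at E0 with shRNA-Ctrl, computed from the authors' deposited tables. With c-Fos overexpression Sst stood at -0.28 ± 0.19 in the authors' deposited table and was not called (adjusted p = 0.43, 95% interval -0.66 to 0.093). Without the shrinkage it stood at -0.42 ± 0.29, so the interval from the shrunken values is too narrow.

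Vip, the peptide of interneurons that mainly inhibit other interneurons, rose at E1 with shRNA-Ctrl by 0.65 ± 0.16 (1.57-fold, adjusted p = 0.00027) in the authors' deposited table. With shRNA-cFos it stood at 0.34 ± 0.20 and was not called (adjusted p = 0.19, 95% interval -0.046 to 0.73) in the authors' deposited table. Vip levels were low, at an estimated 83.1 normalized counts at E1 and 62.4 at E0 with shRNA-cFos, and 128.6 at E1 and 78.8 at E0 with shRNA-Ctrl, computed from the authors' deposited tables. Tac1, the precursor of substance P and neurokinin A, followed with 0.17 ± 0.22 with shRNA-cFos (adjusted p = 0.62, not called) and 0.47 ± 0.17 with shRNA-Ctrl (1.39-fold, adjusted p = 0.023, called) in the authors' deposited tables. Crh, the corticotropin-releasing hormone gene found in some hippocampal interneurons, was 0.012 ± 0.25 with shRNA-cFos (adjusted p = 0.98, not called) and 0.60 ± 0.23 with shRNA-Ctrl (1.52-fold, adjusted p = 0.029, called) in the authors' deposited tables. With c-Fos overexpression Vip (-0.28 ± 0.18), Tac1 (-0.26 ± 0.19) and Crh (0.083 ± 0.20) were not called in the authors' deposited table (adjusted p of 0.39, 0.50 and 0.90). Without the shrinkage these values were -0.38 ± 0.24 for Vip, -0.38 ± 0.29 for Tac1 and 0.16 ± 0.41 for Crh.

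Cck, made by basket cells and by several kinds of glutamatergic neuron, gave a different value in each table. It fell with c-Fos overexpression by 0.88 on the log2 scale, to an estimated 1841 normalized counts in cFos_OE against 3529 in EYFP_OE (-0.88 ± 0.10, adjusted p = 3.7e-18), from the authors' deposited table. Of all genes tested there, 0.171% had a lower log2 fold change. At E1 Cck rose with shRNA-cFos by 0.31 ± 0.08 (1.24-fold, adjusted p = 0.00084) in the authors' deposited table. With shRNA-Ctrl it stood at -0.067 ± 0.10 in the authors' deposited table (adjusted p = 0.67, 95% interval -0.27 to 0.14). Estimated levels were 2885 at E1 and 2315 at E0 with shRNA-cFos, and 3609 at E1 and 3787 at E0 with shRNA-Ctrl, computed from the authors' deposited tables. A rise at E1 with shRNA-cFos and a fall with cFos_OE, as in Cck, was held by 2.55% of the 14341 genes tested in all 3 tables.

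Adcyap1, which encodes the peptide PACAP, was not called in any comparison. Its log2 fold change was 0.26 ± 0.18 with cFos_OE (adjusted p = 0.46), 0.37 ± 0.15 at E1 with shRNA-cFos (adjusted p = 0.055) and 0.032 ± 0.18 at E1 with shRNA-Ctrl (adjusted p = 0.92) in the authors' deposited tables. The 95% intervals were -0.099 to 0.62 with cFos_OE, 0.070 to 0.68 with shRNA-cFos and -0.33 to 0.39 with shRNA-Ctrl. Nts, the neurotensin precursor, was near the detection floor, with mean normalized counts of 9.0 for cFos_OE and EYFP_OE together, 2.76 in the shRNA-cFos table and 3.74 in the shRNA-Ctrl table of the authors' deposited data. It had no adjusted p in the hairpin tables, and with cFos_OE it stood at 0.085 ± 0.17 (adjusted p = 0.86) in the authors' deposited table. That standard error was below the 0.20 of Crh despite a lower mean count, so it reflects the shrinkage and overstates the precision.

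**Figure D2:**
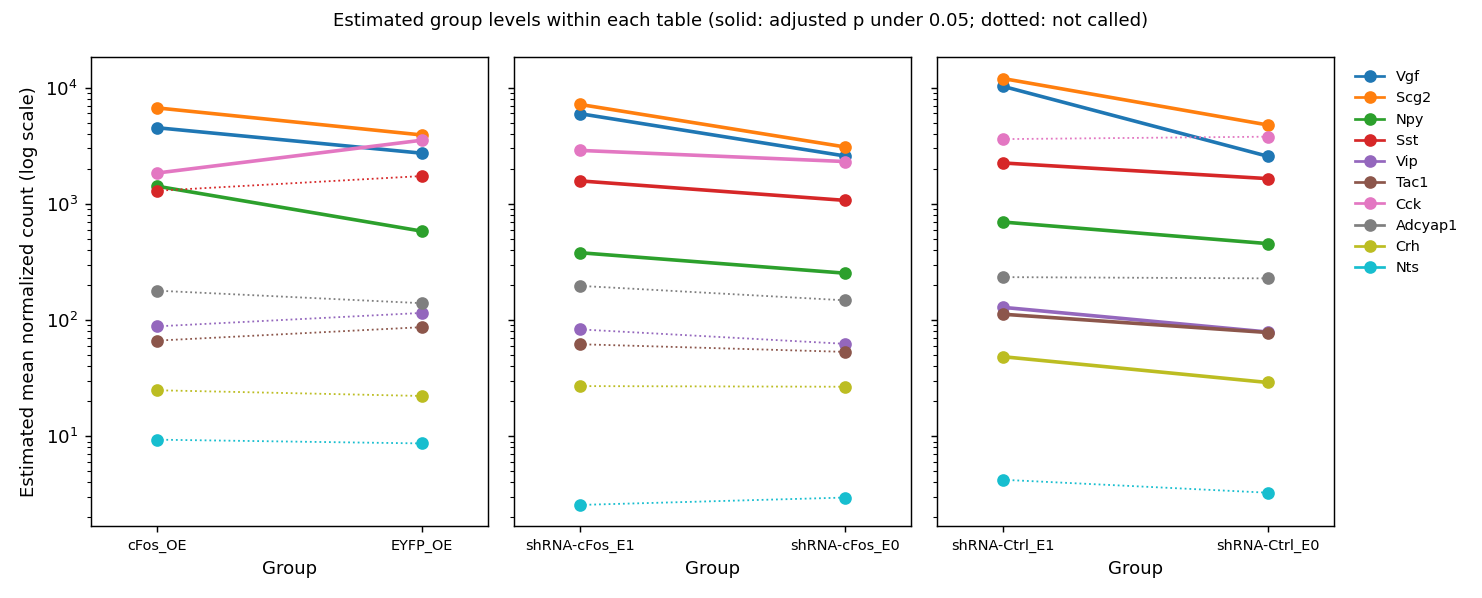
Estimated mean normalized counts (y axis, log scale) of the 10 genes in the groups of each table (x axis: cFos_OE and EYFP_OE, shRNA-cFos_E1 and E0, shRNA-Ctrl_E1 and E0), each line joining the estimates of a gene with no error shown. Solid lines passed an adjusted p of 0.05; Scg2 lies at 11993 in shRNA-Ctrl_E1 and Nts under 10 in every group, and levels are comparable only within a panel.

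Levels between genes were compared per length, as estimated normalized counts per kilobase of exon. The exon lengths came from GENCODE release M21 and not from the authors' annotation. In EYFP_OE the order was Cck (3037), Sst (2406), Scg2 (1558), Npy (1029), Vgf (926), Vip (75.2), Tac1 (70.5), Adcyap1 (39.4), Crh (16.8) and Nts (6.94), computed from the authors' deposited table. Thus 5 precursors stood at 926 per kilobase or more and 5 at 75.2 or less. The group with c-Fos overexpression had another order among the abundant genes, with Scg2 (2665) and Npy (2510) above Sst (1798), Cck (1584) and Vgf (1534), computed from the authors' deposited table. These levels carry no error, so neighbours in the order, such as Vip and Tac1, cannot be separated.

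The difference of the E1 responses between hairpins was tested gene by gene, as shRNA-cFos minus shRNA-Ctrl. Among the 9 genes tested, Vgf had a lower response with shRNA-cFos and Cck a higher one, while 12.9% of all 14386 tested genes had a higher response, 11.0% a lower one and 23.8% either. For Vgf the log2 fold changes of 1.17 with shRNA-cFos and 1.93 with shRNA-Ctrl differed by -0.76 ± 0.14 (adjusted p = 4.5e-06), computed from the authors' deposited tables. For Cck the values of 0.31 with shRNA-cFos and -0.067 with shRNA-Ctrl differed by 0.38 ± 0.13 (adjusted p = 0.021), computed from the authors' deposited tables. Scg2 did not pass, with a difference of -0.12 ± 0.12 and a 95% interval of -0.35 to 0.10 computed from the authors' deposited tables. Npy (-0.028 ± 0.19) and Sst (0.11 ± 0.18) also did not pass, with 95% intervals of -0.40 to 0.35 and -0.24 to 0.46.

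Vip, Tac1 and Crh were called with shRNA-Ctrl and not with shRNA-cFos, yet none of their differences passed. These were -0.31 ± 0.25 for Vip (adjusted p = 0.41), -0.30 ± 0.28 for Tac1 (adjusted p = 0.48) and -0.59 ± 0.34 for Crh (adjusted p = 0.21), computed from the authors' deposited tables. Their 95% intervals were wide, from -1.26 to 0.078 in Crh. Adcyap1 differed by 0.34 ± 0.24 (adjusted p = 0.33), with a 95% interval of -0.13 to 0.81 computed from the authors' deposited tables.

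**Figure D3:**
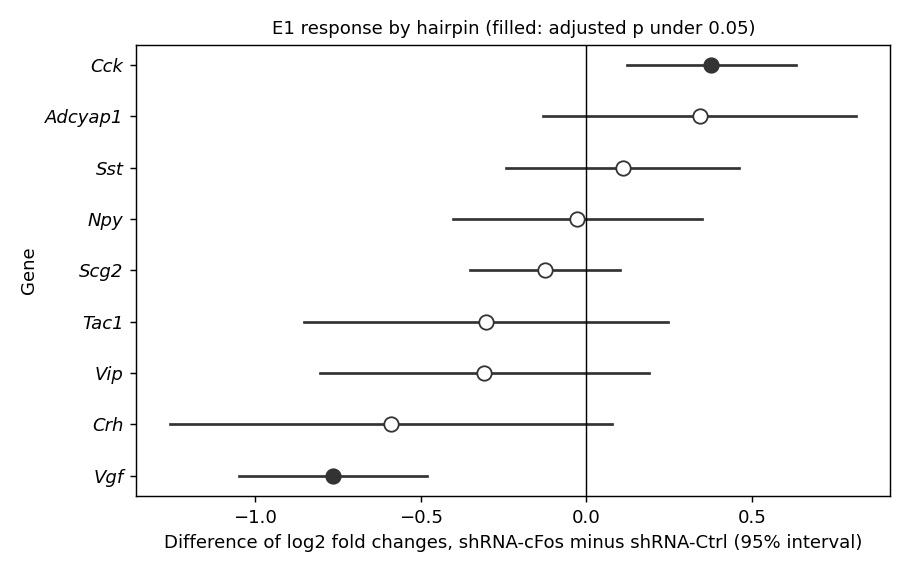
Difference of the E1 log2 fold changes (x axis, shRNA-cFos minus shRNA-Ctrl, with 95% intervals from the authors' standard errors) for the 9 genes tested in both tables (y axis). Filled points passed an adjusted p of 0.05; Vgf lies at -0.76 and Cck at 0.38, and the intervals of the other 7 include 0.

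The response to overexpression was also set against each E1 response, as cFos_OE minus E1, a test added after the values were seen. The libraries are independent, but these are contrasts of different kinds. Against shRNA-Ctrl, 6 of 9 genes had a lower response with cFos_OE and 1 a higher one, where 10.3% of 15514 tested genes were lower, 10% (1552) higher and 20.3% either, computed from the authors' deposited tables. The lower ones were Vgf (-1.23 ± 0.13), Vip (-0.93 ± 0.24), Cck (-0.82 ± 0.14), Tac1 (-0.73 ± 0.26), Sst (-0.70 ± 0.24) and Scg2 (-0.56 ± 0.11), with adjusted p from 5.2e-18 to 0.028. Npy was the higher one, at 0.60 ± 0.18 (adjusted p = 0.0082), computed from the authors' deposited tables. Against shRNA-cFos, 4 of 9 were lower with cFos_OE and 1 higher, where 15.0% of 14343 tested genes were lower, 11.3% higher and 26.3% either. Cck (-1.19 ± 0.12), Sst (-0.81 ± 0.22), Vgf (-0.47 ± 0.13) and Scg2 (-0.44 ± 0.12) were lower and Npy (0.63 ± 0.17) was higher, computed from the authors' deposited tables. Vip (-0.63 ± 0.27, adjusted p = 0.067) did not pass in that test. Of 17 interneuron markers outside the 10 genes, 8 were lower and 0 higher against shRNA-Ctrl, and 11 lower and 0 higher against shRNA-cFos. Among 13 other granin and vesicle genes, 5 were lower and 1 higher against shRNA-Ctrl, and 7 lower and 0 higher against shRNA-cFos. For 12 granule neuron markers, 3 were lower and 6 higher against shRNA-Ctrl, and 6 lower and 0 higher against shRNA-cFos.

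Markers of interneurons, the cells that make several of these peptides, were counted beside them. Of 17 markers outside the 10 genes, 10 rose and 0 fell at E1 with shRNA-cFos, and 8 rose and 0 fell with shRNA-Ctrl, in the authors' deposited tables. Their median log2 fold change was 0.40 with shRNA-cFos and 0.29 with shRNA-Ctrl, and the rises included Gad2, a GABA-synthesizing enzyme, at 0.65 ± 0.12 and 0.34 ± 0.13 in the authors' deposited tables. The summed estimated level of the 17 was 22736 at E1 and 15994 at E0 with shRNA-cFos, and 28116 at E1 and 23826 at E0 with shRNA-Ctrl, computed from the authors' deposited tables. With c-Fos overexpression 0 of the 17 rose and 4 fell, with a median of -0.22 and a summed level of 21031 in cFos_OE and 22994 in EYFP_OE, computed from the authors' deposited table. Npy rose and Sst, Vip and Tac1 were not called in that comparison. Among all tested genes, 28.1% were called either way with shRNA-cFos, 33.0% with shRNA-Ctrl and 13.0% with cFos_OE. None of the 17 was at 0 in any table, and their part in the values of Sst, Vip, Tac1, Npy and Cck was not tested.

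Markers of the principal cells were counted in the same way. Granule neuron markers rose for 8 of 12 and fell for 0 at E1 with shRNA-cFos, and rose for 1 and fell for 8 with shRNA-Ctrl, in the authors' deposited tables. Their summed level was 20663 at E1 and 15673 at E0 with shRNA-cFos, and 26600 at E1 and 33869 at E0 with shRNA-Ctrl, computed from the authors' deposited tables. The CA1 and CA3 pyramidal markers, from neurons that also make Cck, rose for 4 of 10 and fell for 1 with shRNA-cFos, and rose for 0 and fell for 2 with shRNA-Ctrl, in the authors' deposited tables. With cFos_OE, granule markers rose for 1 of 12 and fell for 5, pyramidal markers fell for 2 of 10 and mossy cell markers for 2 of 8, in the authors' deposited table. The summed pyramidal level was 10160 in cFos_OE and 11992 in EYFP_OE, and the part of these cells in the fall of Cck was not tested. Mossy cell markers rose for 1 of 8 at E1 with shRNA-cFos and for 2 with shRNA-Ctrl, in the authors' deposited tables. Over all tested genes, 28.1% were called with shRNA-cFos, 33.0% with shRNA-Ctrl and 13.0% with cFos_OE, so the mossy counts at E1 and the pyramidal count with shRNA-Ctrl were no higher than these shares.

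Microglial markers fell for 5 of 10 and rose for 1 at E1 with shRNA-cFos, rose for 8 with shRNA-Ctrl and rose for 5 with cFos_OE, in the authors' deposited tables. Astrocyte markers rose for 4 of 8 and fell for 1 at E1 with shRNA-cFos, rose for 1 with shRNA-Ctrl, and rose for 2 and fell for 1 with cFos_OE. Oligodendrocyte markers fell for 1 of 8 with shRNA-cFos, rose for 1 with shRNA-Ctrl and were not called with cFos_OE. The oligodendrocyte counts, and the astrocyte count with shRNA-Ctrl, were no higher than the shares over all tested genes. Those shares were 28.1% with shRNA-cFos, 33.0% with shRNA-Ctrl and 13.0% with cFos_OE. Between the hairpins, the E1 response of 11 of 12 granule markers was higher and that of 6 of 10 microglial markers lower with shRNA-cFos, from the authors' deposited tables. Among all genes tested for that difference, 12.9% were higher and 11.0% lower. The part of these markers in the differences of Vgf and Cck was not tested.

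Genes of precursor processing were followed as a list of 10. At E1 with shRNA-cFos the authors' deposited table called 5 higher and 0 lower. These were Pcsk1 (1.07 ± 0.12) and Pcsk2 (0.66 ± 0.10), the main prohormone convertases of neurons, Pam, which amidates peptides (0.47 ± 0.09), the Golgi convertase gene Furin (0.36 ± 0.10) and Cpe, a carboxypeptidase (0.19 ± 0.07). With shRNA-Ctrl, Pcsk1 (1.64 ± 0.15) and Furin (0.37 ± 0.10) rose, and Pcsk2 (-0.42 ± 0.12) and Pcsk5 (-0.46 ± 0.10) fell, in the authors' deposited table. The response of Pcsk2 was higher with shRNA-cFos by 1.08 ± 0.16 (adjusted p = 1.0e-09) and that of Pcsk1 lower by 0.57 on the log2 scale (-0.57 ± 0.20, adjusted p = 0.021), computed from the authors' deposited tables. In all, 2 of the 10 had a higher response with shRNA-cFos and 1 a lower one. Shares over all genes tested for that difference were 12.9% higher and 11.0% lower. With cFos_OE Pcsk2 alone of the 10 was called, at -0.71 ± 0.09 (adjusted p = 3.3e-13) in the authors' deposited table. Of all tested genes, 28.1% were called with shRNA-cFos, 33.0% with shRNA-Ctrl and 13.0% with cFos_OE. The count of the list with shRNA-Ctrl stood near its share, and that with cFos_OE was no higher than its share.

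Other granins and dense-core vesicle genes were a list of 13, with Pcsk1n and Scg5 also counted in the list of processing genes. At E1, 6 rose and 0 fell with shRNA-cFos, and 6 rose and 1 fell with shRNA-Ctrl, in the authors' deposited tables. Among all tested genes, 16.3% were called higher and 11.7% lower with shRNA-cFos, and 16.8% higher and 16.2% lower with shRNA-Ctrl. The granin genes Chgb (0.72 ± 0.10 with shRNA-cFos and 0.34 ± 0.11 with shRNA-Ctrl) and Chga (0.19 ± 0.07 and 0.56 ± 0.08) rose in both arms of the authors' deposited tables. Ptprn, a membrane protein of dense-core vesicles, rose by 0.62 ± 0.08 with shRNA-cFos and 0.37 ± 0.07 with shRNA-Ctrl in the authors' deposited tables. The response of Chgb was higher with shRNA-cFos (0.39 ± 0.15, adjusted p = 0.045) and that of Chga lower (-0.37 ± 0.11, adjusted p = 0.0047), computed from the authors' deposited tables. Chgb was the 1 gene of the 13 with a higher response, and Chga was among 3 with a lower one. Over all genes tested for that difference, 12.9% were higher and 11.0% lower. The other rises with shRNA-cFos were Cadps (0.33 ± 0.09), which primes dense-core vesicles, Rab3c (0.26 ± 0.10) and Ptprn2 (0.23 ± 0.08) in the authors' deposited table. Syt4, a vesicle synaptotagmin, rose with shRNA-Ctrl by 0.64 ± 0.11, and Ica1 fell by 0.28 on the log2 scale (-0.28 ± 0.08), in the authors' deposited table. With cFos_OE the authors' deposited table called 2 of the 13 higher and 3 lower, where 7.10% of all tested genes were called higher and 5.86% lower. Ptprn (0.78 ± 0.07) and Chga (0.21 ± 0.08) rose, and Chgb (-0.60 ± 0.11), Cadps2 (-0.47 ± 0.11), which acts in vesicle priming, and Syt4 (-0.34 ± 0.08) fell in the authors' deposited table.

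**Figure D4:**
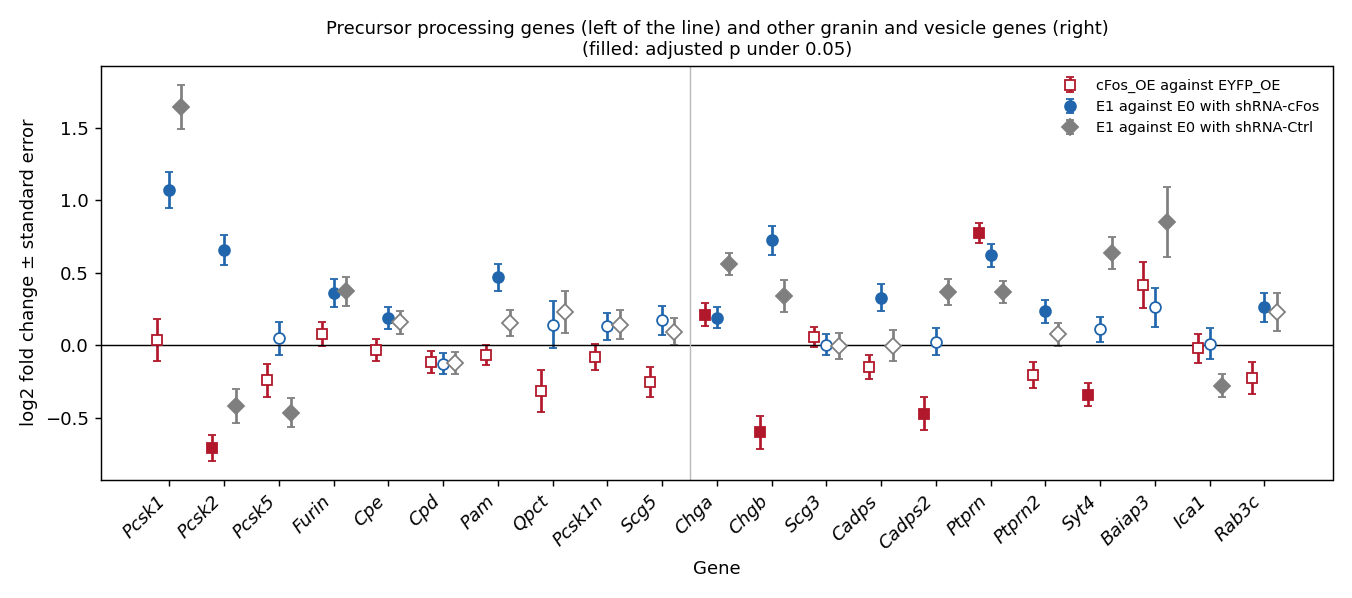
Log2 fold change (y axis, ± the authors' standard error) of precursor processing genes and other granin and dense-core vesicle genes (x axis) with cFos_OE against EYFP_OE (squares) and at E1 against E0 with shRNA-cFos (circles) and shRNA-Ctrl (diamonds). Filled symbols passed an adjusted p of 0.05; Pcsk2 lies at 0.66 with shRNA-cFos, -0.42 with shRNA-Ctrl and -0.71 with cFos_OE.

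Receptors of these peptides were a list of 22, of which 17 were tested at E1 with shRNA-cFos and 18 in each of the other tables. With shRNA-cFos the authors' deposited table called 4 higher and 2 lower, where 16.3% of all tested genes were called higher and 11.7% lower. The somatostatin receptor genes Sstr4 (0.68 ± 0.12) and Sstr2 (0.57 ± 0.17), and the neurotensin receptor genes Ntsr2 (0.43 ± 0.10) and Sort1 (0.33 ± 0.08, mainly a sorting receptor) rose there. The neuropeptide Y receptor gene Npy5r (-0.87 ± 0.19) and the cholecystokinin receptor gene Cckbr (-0.83 ± 0.17) fell in the authors' deposited table. With shRNA-Ctrl the authors' deposited table called 6 higher and 5 lower, where 16.8% of all tested genes were called higher and 16.2% lower. On the higher side were Sstr4 (0.91 ± 0.10), the neurokinin receptor gene Tacr3 (1.60 ± 0.26) and Ntsr1 (0.81 ± 0.24). On the lower side of that authors' deposited table were Npy5r (-1.06 ± 0.15), Npy2r (-0.64 ± 0.11) and Sstr1 (-0.51 ± 0.13).

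Cckbr was the receptor with an E1 response called in opposite directions, at -0.83 ± 0.17 with shRNA-cFos and 0.42 ± 0.17 with shRNA-Ctrl, a difference of -1.24 ± 0.24 (adjusted p = 6.1e-06) computed from the authors' deposited tables. Sort1 was too, at 0.33 ± 0.08 with shRNA-cFos and -0.30 ± 0.08 with shRNA-Ctrl, a difference of 0.62 ± 0.12 (adjusted p = 3.6e-06) computed from the authors' deposited tables. Of the 17 receptors tested for this difference 3 were higher and 2 lower, the others being Ntsr2 (0.67 ± 0.16) and Npy1r (0.51 ± 0.15) on the higher side and Tacr3 (-1.43 ± 0.36) on the lower, from the authors' deposited tables. Over all genes tested for this difference, 12.9% were higher, 11.0% lower and 23.8% either, so the receptor counts stood near these shares. With cFos_OE the authors' deposited table called 3 receptors higher and 5 lower, where 7.10% of all tested genes were called higher and 5.86% lower. The corticotropin-releasing hormone receptor genes Crhr1 (1.65 ± 0.12) and Crhr2 (1.73 ± 0.18) and the substance P receptor gene Tacr1 (0.93 ± 0.20) rose, while their ligands Crh and Tac1 were not called. Npy2r (-0.61 ± 0.10) and Npy1r (-0.57 ± 0.13) fell in the authors' deposited table, beside the rise of Npy. Sort1 (-0.38 ± 0.07) and Sstr4 (-0.49 ± 0.15) also fell in that comparison, while Nts and Sst were not called. Cckbr, named after its values were seen, fell by 0.70 on the log2 scale (-0.70 ± 0.18) there, beside the fall of Cck.

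Genes that bind or degrade peptides were a list of 9, of which 1 rose with shRNA-cFos, 2 rose and 2 fell with shRNA-Ctrl and 1 rose with cFos_OE in the authors' deposited tables. They included Crhbp, the binding protein of corticotropin-releasing hormone, at 0.63 ± 0.19 with shRNA-Ctrl, and Mme, the peptidase neprilysin, at 0.50 ± 0.18 with shRNA-cFos. Endothelin-converting enzyme genes divided with shRNA-Ctrl, with Ece1 at 0.40 ± 0.08 and Ece2 at -0.22 ± 0.09 in the authors' deposited table. Prep, a prolyl peptidase gene, fell there too (-0.26 ± 0.09), and the peptidase gene Thop1 was the rise with cFos_OE (0.24 ± 0.09), in the authors' deposited tables. Of all tested genes, 28.1% were called with shRNA-cFos, 33.0% with shRNA-Ctrl and 13.0% with cFos_OE. The counts of the 9 with shRNA-cFos and with cFos_OE were no higher than these shares. Between the hairpins, 3 of the 9 had a higher E1 response with shRNA-cFos and 0 a lower one. Shares over all genes tested for that difference were 12.9% higher and 11.0% lower.

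Other non-opioid neuropeptide genes were a list of 31, many of them at very low counts. With shRNA-cFos 10 were tested and 2 rose, Pthlh (1.22 ± 0.26) and Adm (0.71 ± 0.26), in the authors' deposited table. With shRNA-Ctrl 18 were tested and 6 rose, Pthlh (1.22 ± 0.23), Gal (1.21 ± 0.27), Adm (0.97 ± 0.26), Trh (0.84 ± 0.28), Nmb (0.62 ± 0.22) and Cartpt (0.57 ± 0.20), in the authors' deposited table. Over all tested genes, 16.3% were called higher with shRNA-cFos and 16.8% with shRNA-Ctrl, and 28.1% and 33.0% either way. Between the hairpins 10 were tested, and 0 had a higher E1 response with shRNA-cFos and 1 a lower one. Shares over all genes tested for that difference were 12.9% higher and 11.0% lower. With cFos_OE 18 were tested, 5 rose and 2 fell, beside 7.10% of all tested genes called higher and 5.86% lower. The highest of the 18 were Avp (1.47 ± 0.20), which encodes vasopressin, Trh (1.43 ± 0.20), Calca (1.30 ± 0.19) and Gal (1.14 ± 0.20), at mean normalized counts of 28.9 to 94.7 in the authors' deposited table. Their means were 2.91 to 9.42 with shRNA-cFos and 8.84 to 34.2 with shRNA-Ctrl, each normalized separately. Without values per library, the part of a single library in these rises could not be examined. Tac2 (0.97 ± 0.20) also rose, and Cort (-0.63 ± 0.20) and Nmb (-0.62 ± 0.20) fell, in the authors' deposited table. Oxt, which encodes oxytocin, stood at 0.96 ± 0.18 with a mean normalized count of 72.0 but without a p in the authors' deposited table, as did 9 genes there in all, and is not counted.

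Genes with a pattern near that of the granin-like precursors were found by the Euclidean distance over the 3 log2 fold changes, among the 14341 genes tested in all 3 tables. The nearest to Scg2 were Sox11 (distance 0.10), Nefm (0.18), Dyrk3 (0.21), Ptchd1 (0.24) and A830010M20Rik (0.38). Sox11, a transcription factor gene of immature neurons, stood at 0.79 with cFos_OE, 1.19 at E1 with shRNA-cFos and 1.22 at E1 with shRNA-Ctrl in the authors' deposited tables. The nearest to Vgf were Lbh (0.22), Trib1 (0.34), Fndc9 (0.37), Sgk1 (0.41) and A830010M20Rik (0.44). Lbh stood at 0.60 with cFos_OE, 1.18 with shRNA-cFos and 2.13 with shRNA-Ctrl in the authors' deposited tables. Distances of this kind over 3 values are a description.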

How the data were processed

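The members and the gene lists were chosen with earlier results of these data known. The submitters' processing notes name TopHat2, DESeq2 and build mm9; versions, counting tool, annotation and strand setting are not given here. Per the file headers, each deposited row holds the mean normalized count, a signal value over the 6 libraries of the comparison, and DESeq2's log2 fold change with its standard error. The deposited Wald score is the ratio of both, as checked on every row, and the deposited p-value and adjusted p-value follow from it. The tables hold 0 columns of values per library, so the planned count tests could not be run and the authors' own comparisons were used, as the plan named for that case. Precision is that of the authors' standard errors, with a median over tested genes of 0.11 to 0.12. Replicates share no batch label, and each library came from its own animal per the labels.

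The deposited log2 fold changes were shrunken toward 0. Levels by group were computed after algebraic removal of a zero-centred normal prior, whose standard deviation, taken as 2 times the highest standard error of the table, was 0.41 for cFos_OE, 0.53 for shRNA-cFos and 0.59 for shRNA-Ctrl. The removal assumes an unshrunken error below that standard deviation, which is doubtful for genes near the detection floor, such as Nts. Differences of responses were tested by dividing the gap between both log2 fold changes by their combined standard error (normal approximation, 2-sided, Benjamini-Hochberg over all genes tested in both tables) with scipy 1.17.1, and the step was tested on simulated data. The sign of the overexpression table was checked with Fos. Rows whose names had become dates (27 in that table) were left out. In the 3 deposited comparisons, genes named from the other lists were those past the threshold. All were named where 6 or fewer passed, and otherwise at least the 3 with the smallest adjusted p in each direction. For the cell type markers and the differences of responses, not every gene past the threshold was named. The 5 genes nearest in pattern to Vgf and Scg2 were also named. Alternatives were other thresholds, a fold minimum of 1.5, removal of the prior, adjustment over all genes with a p and centring on the median.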

Additional observations from a re-analysis of the deposited data

Results flagged for a closer look

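Among the members, the E1 response differed between the hairpins by the test of the difference itself for Vgf and for Cck. The log2 difference, shRNA-cFos minus shRNA-Ctrl, was -0.76 for Vgf, whose response was lower with shRNA-cFos. It was 0.38 for Cck, whose response was higher with shRNA-cFos. With no values per library, no single library could be examined.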

How the results depend on the processing

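Over the members and Fos, 336 of 354 single-gene values under 6 alternatives kept their direction and their side of the threshold and none reversed. The others came from other thresholds or the fold minimum (16 lost their call and 2 gained one). At an adjusted p of 0.01, 2622 genes were called with shRNA-cFos, 1366 with cFos_OE, 2202 for the difference between hairpins and 2016 for cFos_OE minus shRNA-Ctrl. At that threshold 4 members rose with shRNA-Ctrl, without Sst, Tac1 and Crh, and 0 had a higher response with shRNA-cFos, without Cck; in cFos_OE minus shRNA-Ctrl, 4 members were lower, without Sst and Tac1. With a fold minimum of 1.5, 1077 genes were called with shRNA-cFos, 1660 with shRNA-Ctrl, 615 with cFos_OE, 1708 for the difference between hairpins, and 1607 and 2032 for cFos_OE minus shRNA-Ctrl and minus shRNA-cFos. That minimum left 2 members higher with shRNA-cFos (Vgf and Scg2), 4 higher with shRNA-Ctrl (Vgf, Scg2, Vip and Crh), 0 with a higher response to E1 with shRNA-cFos, and 2 lower in cFos_OE minus shRNA-cFos (Cck and Sst). It moved the share of higher calls over all genes to 61.4% with shRNA-Ctrl, 76.7% with cFos_OE and 43.6% for the difference between hairpins. Adcyap1 with shRNA-cFos, and Vip in cFos_OE minus shRNA-cFos, passed at an adjusted p of 0.1. Centring, removal of the prior and adjustment over all genes with a p changed no member's call. Leaving out a library was not run, and no paired analysis was possible because the tables hold no values per library. Low means limit Crh, Tac1, Vip and Nts most.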
